A study of Homo sapiens with 4 samples.

Results

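The G1 cyclins, CDKs and CDK inhibitors examined here were the 10 genes CCND1, CCND3, CCNE1, CCNE2, CDK4, CDK6, CDKN1A, CDKN1B, CDKN2A and RB1. They were taken by gene name, with 1 row each, from a table of 58174 genes. Values are TPM, a measure of transcript abundance corrected for transcript length and expressed as a share of each library, so levels of different genes can be compared on this scale. RNA was sequenced from cultures of the human lung cancer lines H1299 and HCC827, taken 48 h after transfection with siCDH3, an siRNA against the P-cadherin gene CDH3, or with the control siRNA siCTR. The 4 groups are therefore H1299 siCTR, H1299 siCDH3, HCC827 siCTR and HCC827 siCDH3, each with 1 library, and the design asked how expression differs after a short silencing of CDH3 in each line. H1299 was established from a lymph node metastasis of a non-small cell lung carcinoma, and HCC827 comes from a lung adenocarcinoma and carries an activating deletion in EGFR. Transfection was transient, every group received an siRNA, and no untransfected culture was analysed here.

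Cells pass from G1 into S phase when cyclin-dependent kinases inactivate the retinoblastoma protein, which otherwise holds E2F transcription factors in check. D-type cyclins activate CDK4 and CDK6, and E-type cyclins then activate CDK2. The INK4 inhibitors bind CDK4 and CDK6, while the CIP/KIP inhibitors p21 and p27 act on cyclin-bound kinases, chiefly those with CDK2. Lung cancers often disable this checkpoint at the level of RB1, CDKN2A or cyclin D1.

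CDH3, the targeted gene, went from 1.21 TPM with siCTR to 0.169 with siCDH3 in H1299, and from 173 to 78.8 TPM in HCC827. It was lower with siCDH3 in both lines, and in H1299 it was hardly expressed at all. The read depth of the libraries is unknown, because TPM keeps no depth. All 6 epithelial markers (EPCAM, CDH1, KRT7, KRT8, KRT18 and KRT19) had a TPM of at least 5 in both HCC827 libraries and 3 of the 6 did so in both H1299 libraries, and the mesenchymal markers VIM, CDH2 and ZEB1 all reached it in H1299 and 1 of the 3 in HCC827. Of the lung lineage markers, 2 of 3 reached 5 TPM in HCC827 and 0 in H1299. No hematopoietic marker of 5 and no endothelial marker of 4 reached it in any library, and of 6 fibroblast markers COL1A1 alone did so, in HCC827 at 5.58 and 5.87 TPM. Mitochondrially encoded genes made up 13.5% (siCTR) and 16.4% (siCDH3) of TPM in H1299, and 36.2% and 34.4% in HCC827. A larger share for these genes lowers the TPM of all others in the same library.

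Promoter sequences are shown for CDK4, which had the largest difference between the lines, for CDKN1A and CDKN1B, which were lower together in H1299 siCDH3, and for CDKN2A, whose row sums transcripts from separate starts. They are the 250 bases before a RefSeq start, on build GRCh38.p14. The TPM table was made on hg19 and was joined to them by gene symbol alone. Of the 10 members, 8 matched an entry, with 12 starts in all, and CCND1 and CCNE2 did not. The RB1 entry is a start inside the gene, so its window is not the promoter of the full-length transcript and is not shown. It held no match to any motif searched. Capitals mark matches on either strand to CACGTG (the E-box bound by MYC with MAX), GGGCGG (the GC box bound by SP1) or CCAAT (the box bound by NF-Y). Adjacent matches can overlap. The CDK4 window, at chr12:57752311-57752560 on the minus strand, holds 3 E-boxes and 3 GC boxes. The CDKN1A window, at chr6:36678464-36678713 on the plus strand, holds 4 GC boxes. The CDKN1B window, at chr12:12717118-12717367 on the plus strand, holds 2 CCAAT boxes and 1 GC box. The CDKN2A windows lie on the minus strand at chr9:21995325-21995574 (the outer start) and chr9:21974858-21975107 (the inner start), with 0 and 1 GC box.
CDK4: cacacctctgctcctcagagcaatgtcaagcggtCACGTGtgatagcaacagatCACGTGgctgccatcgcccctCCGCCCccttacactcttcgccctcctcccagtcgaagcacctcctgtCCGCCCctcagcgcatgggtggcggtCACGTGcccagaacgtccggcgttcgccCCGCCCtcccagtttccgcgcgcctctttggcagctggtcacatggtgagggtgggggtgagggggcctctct
CDKN1A: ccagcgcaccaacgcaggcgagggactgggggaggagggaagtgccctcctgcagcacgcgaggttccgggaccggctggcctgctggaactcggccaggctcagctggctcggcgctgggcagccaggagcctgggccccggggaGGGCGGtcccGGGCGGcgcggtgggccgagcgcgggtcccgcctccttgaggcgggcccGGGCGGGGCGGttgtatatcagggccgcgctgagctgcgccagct
CDKN1B: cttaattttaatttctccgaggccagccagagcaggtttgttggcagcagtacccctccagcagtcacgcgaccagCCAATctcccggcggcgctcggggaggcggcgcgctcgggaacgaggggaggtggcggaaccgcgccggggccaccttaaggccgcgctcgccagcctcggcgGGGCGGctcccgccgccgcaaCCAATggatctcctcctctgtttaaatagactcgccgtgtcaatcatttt
CDKN2A outer start: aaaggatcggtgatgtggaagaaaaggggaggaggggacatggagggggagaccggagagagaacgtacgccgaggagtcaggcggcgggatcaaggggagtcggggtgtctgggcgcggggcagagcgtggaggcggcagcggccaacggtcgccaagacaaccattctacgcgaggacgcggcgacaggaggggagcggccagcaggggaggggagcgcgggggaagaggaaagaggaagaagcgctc
CDKN2A inner start: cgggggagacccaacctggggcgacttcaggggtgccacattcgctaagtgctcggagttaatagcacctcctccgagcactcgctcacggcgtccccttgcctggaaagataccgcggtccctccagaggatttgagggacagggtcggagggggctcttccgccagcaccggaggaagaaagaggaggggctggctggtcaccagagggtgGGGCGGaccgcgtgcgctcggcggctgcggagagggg

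Among the 12 member windows an E-box was found in 1, that of CDK4, and 6.34% of the 35116 promoter windows in the table hold one. GC boxes were found in 8 of the 12 windows, against 42.6% of all windows, and CCAAT boxes in 3, against 32.0%. The E2F words TTTCCCGC, TTTCGCGC, TTTGGCGC and TTTGCCGC, searched on both strands, were found in 0 of the 12, the internal RB1 window included, and in 2.79% of all windows. These matches describe the letters of the windows and are not evidence of binding.

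CDK4 stood at rank 1 of the members in HCC827 and at rank 5 in H1299, and the other 9 genes came in the same order in both lines. By the mean of the line's 2 libraries, CDKN2A was highest in H1299 (231 TPM), followed by CCND1 (115), CDKN1B (109), CDKN1A (92.0), CDK4 (74.3), CCND3 (66.7), CDK6 (45.2), RB1 (33.8), CCNE1 (12.1) and CCNE2 (3.60). In HCC827 the order was CDK4 (977), CDKN2A (269), CCND1 (137), CDKN1B (61.0), CDKN1A (26.3), CCND3 (20.9), CDK6 (13.5), RB1 (11.9), CCNE1 (9.90) and CCNE2 (3.46). In H1299 the ranges of the siCTR and siCDH3 values overlapped between CCND1 and CDKN1B, between CDKN1B and CDKN1A, and between CDK6 and RB1. By this rule these neighbours cannot be ordered. Within each H1299 library CDKN1B was still above CDKN1A and CDK6 above RB1, whereas CCND1 and CDKN1B changed places. In HCC827 no neighbouring ranges overlapped. Each range rests on 2 libraries that received different siRNAs.

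**Figure D1:**
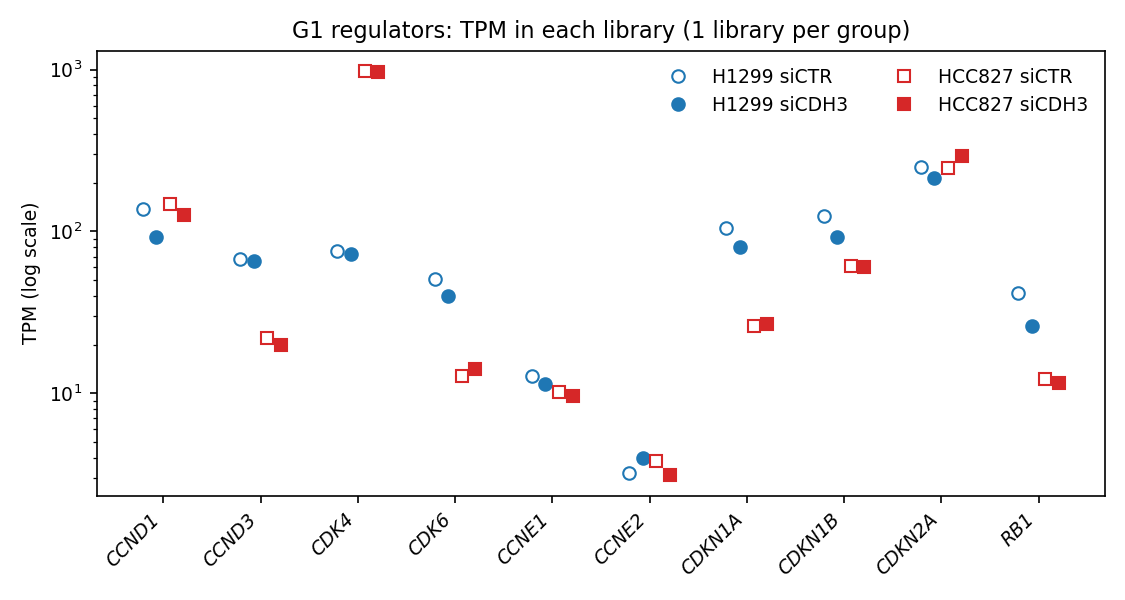
TPM of the 10 genes (log axis) in the 4 libraries, 1 point per library, with open symbols for siCTR, filled symbols for siCDH3, circles for H1299 and squares for HCC827. CDK4 lies at 981 and 972 TPM in HCC827 and at 75.6 and 72.9 TPM in H1299, whereas CCND3, CDK6, CDKN1A, CDKN1B and RB1 lie lower in both HCC827 libraries than in either H1299 library.

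The lines were compared first, to describe the G1 regulators each culture started from. HCC827 had much more CDK4 transcript than H1299 and less CCND3, CDK6, CDKN1A, CDKN1B and RB1, while CCND1, CCNE1, CCNE2 and CDKN2A were close. Where a pair of values is given for a line, the siCTR library comes first. The log2 ratio of TPM + 1 compares single libraries, over genes that reach 5 TPM in either of them, and has no replicate check. limma is a linear model, fitted here to log2(TPM + 1) of 12941 genes with line and siRNA as terms and Benjamini-Hochberg adjustment. It compares the lines over 2 libraries each. Its spread for a gene combines the difference between the lines' responses to siRNA with a spread estimated from all genes. The 2 libraries of a line are not separate lines, so the test describes these cultures.

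Of the 9 members past the filter in the siCTR comparison, HCC827 exceeded H1299 by 2-fold or more for 1 and lay below it by 2-fold or more for 5. Among all 12601 genes compared, 13.5% were 2-fold higher and 27.8% were 2-fold lower. The median log2 ratio was -1.01 for the members and -0.39 for all genes. CCNE2 did not reach 5 TPM in any library and is not among the 9. In limma 6 of the 9 members differed between the lines at an adjusted p under 0.05, 1 higher and 5 lower in HCC827, where 21.5% of all genes tested were called higher and 41.3% lower. The share of members called is close to the share of all genes called. With TPM recomputed without mitochondrially encoded genes, the split over all genes turned from 2787 higher and 5351 lower to 4647 higher and 3822 lower, and with quantile normalization it was 3796 and 4265. In bulk RNA, a difference in how many cells express a gene and a difference in RNA per cell cannot be told apart.

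CDK4, a catalytic partner of the D cyclins, had 75.6 and 72.9 TPM in H1299 and 981 and 972 TPM in HCC827. The lines were far apart and the libraries within a line nearly equal. CDK4 was 13.0-fold higher in HCC827 among the siCTR libraries and 13.3-fold higher among the siCDH3 libraries. Its log2 difference in limma was 3.70 (SE 0.15, 95% interval 3.31 to 4.09, adjusted p = 9.99e-05), and 97.1% of the genes compared in siCTR had a lower log2 ratio.

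CDK6, the other D-cyclin kinase, went the opposite way. It had 50.5 and 39.9 TPM in H1299 and 12.8 and 14.1 TPM in HCC827, with both HCC827 values below both H1299 values. The limma log2 difference was -1.67 (SE 0.18, adjusted p = 0.0016). As a share of the summed TPM of the pair, CDK4 made up 59.9% and 64.6% in the H1299 libraries and 98.7% and 98.6% in those of HCC827. The sum itself was 126 and 113 TPM in H1299 and 994 and 986 TPM in HCC827.

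Among the D cyclins, CCND1 had TPM values of 137 and 92.5 in H1299 and of 148 and 126 in HCC827, and the ranges of the lines overlapped. CCND1 encodes cyclin D1, a frequent growth-signal target in carcinomas. Its line difference was 0.27 on the log2 scale (95% interval -0.17 to 0.72, limma adjusted p = 0.212), and it passed the threshold with TPM recomputed without mitochondrially encoded genes (adjusted p = 0.0221) and with quantile normalization (0.0203). CCND3 (cyclin D3) had 67.7 and 65.6 TPM in H1299 and 21.8 and 20.005 in HCC827, without overlap, and its limma log2 difference was -1.63 (SE 0.15, adjusted p = 9.11e-04). CCND1 therefore made up 66.8% and 58.4% of D cyclin TPM in H1299 and 87.1% and 86.3% in HCC827. CCND2 added at most 0.174% in any library.

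The E cyclins were at similar low levels in both lines. CCNE1, which encodes cyclin E1, had 12.8 and 11.4 TPM in H1299 and 10.2 and 9.64 in HCC827. The HCC827 values lay below those of H1299 without overlap, but the limma log2 difference of -0.26 (95% interval -0.66 to 0.13) did not pass the test (adjusted p = 0.187), and the log2 ratio became positive, at 0.09 in siCTR and 0.01 in siCDH3, once the median of all genes was set to 0. CCNE2, for cyclin E2, had 3.23 and 3.97 TPM in H1299 and 3.81 and 3.11 in HCC827, with overlapping ranges. The 2 genes together summed to between 12.7 and 16.0 TPM in the 4 libraries.

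Of the inhibitors, CDKN1A (p21, a CIP/KIP inhibitor) had 104 and 79.7 TPM in H1299 and 26.0 and 26.7 in HCC827. Both H1299 values were higher, 4.02-fold among the siCTR libraries and 2.99-fold among the siCDH3 libraries. The limma log2 difference was -1.75 (SE 0.18, adjusted p = 0.00124). CDKN1B (p27, also a CIP/KIP inhibitor) had 124 and 92.9 TPM in H1299 and 61.5 and 60.4 in HCC827. Its difference was smaller, at -0.81 (SE 0.18, adjusted p = 0.0139), and did not pass with TPM recomputed without mitochondrially encoded genes (0.0806) or with no filter (0.0523). Its siCTR log2 ratio of -1.01 lay just past the 2-fold rule, and it was -0.61 with the median of all genes set to 0.

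CDKN2A, which encodes the INK4 inhibitor p16 and, from its outer start, ARF, had 249 and 213 TPM in H1299 and 246 and 291 in HCC827. The ranges overlapped, and the limma log2 difference of 0.22 (95% interval -0.27 to 0.70) did not pass (adjusted p = 0.350), although it passed without mitochondrially encoded genes (0.0364) and with quantile normalization (0.0257). The values are per gene, so p16 and ARF transcripts cannot be separated. RB1, the substrate of these kinases, had 41.5 and 26.1 TPM in H1299 and 12.2 and 11.6 in HCC827, without overlap, and a limma log2 difference of -1.39 (SE 0.20, adjusted p = 0.00382).

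**Figure D2:**
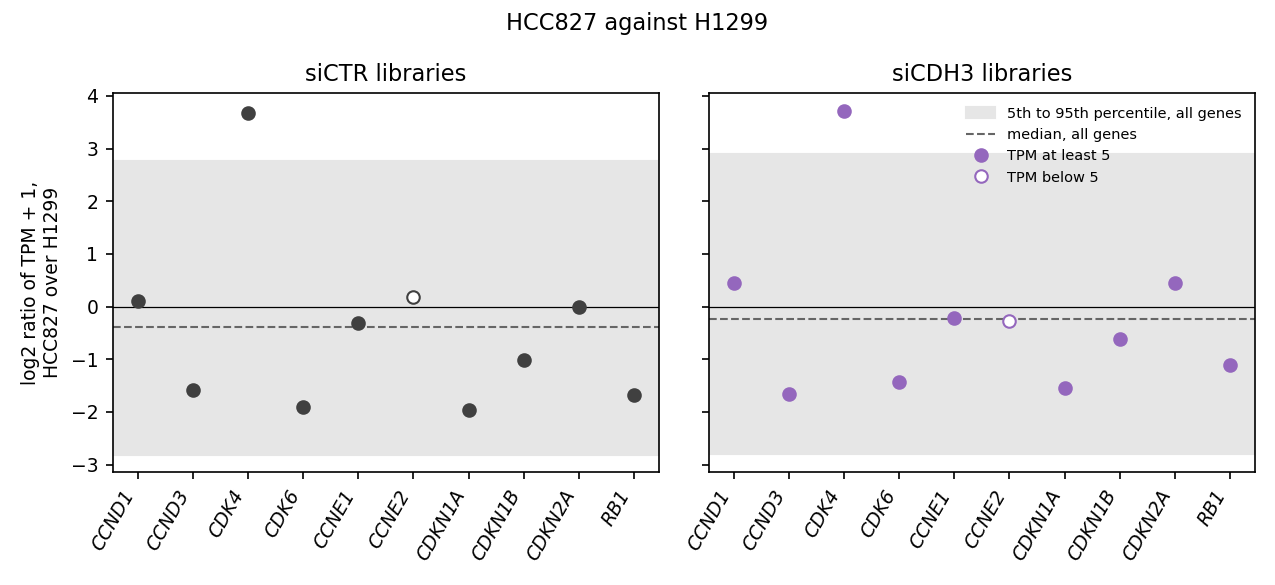
Log2 ratio of TPM + 1 in HCC827 over H1299 for the 10 genes, in the siCTR libraries (left) and the siCDH3 libraries (right), with the 5th to 95th percentile of all genes in grey, their median dashed, and an open symbol for CCNE2, which is under 5 TPM. CDK4 lies above the grey band in both panels, at 3.68 and 3.72, and the other 9 genes lie inside it.

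The other INK4 genes had lower TPM in HCC827. CDKN2C (p18) had 40.2 and 35.4 TPM in H1299 and 3.22 and 3.60 in HCC827, and CDKN2D (p19) had 32.1 and 29.2 against 3.23 and 4.83. CDKN2B (p15), the neighbour of CDKN2A, had 33.6 and 34.8 against 16.1 and 17.3. Of the 4 genes of the list of other CDK inhibitors, CDKN2B alone was above 5 TPM in both lines, and its limma log2 difference was -0.99 (adjusted p = 0.00444), where 41.3% of all genes tested were called lower. CDKN2C and CDKN2D passed the filter only through H1299, so that they were called lower in HCC827 was largely fixed by the filter. The CDKN2A row made up 70.1% and 68.2% of the summed TPM of CDKN2A, CDKN2B, CDKN2C and CDKN2D in H1299. In HCC827 it made up 91.6% and 91.9%. This row also counts ARF transcripts, so the share of p16 in the sum is unknown.

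Of 12 genes of the RB family, E2F and DP factors, 10 were tested by limma between the lines, 4 of them called higher and 3 lower in HCC827, where 21.5% and 41.3% of all genes were called. E2F7 and E2F8, called lower and higher, passed the filter only through the line in which they were higher. E2F4, a factor chiefly of quiescent and early G1 cells, had 40.4 and 35.3 TPM in H1299 and 107 and 85.5 in HCC827, and E2F5, of the same class, had 76.5 and 58.8 against 19.3 and 17.0. Of the list of other G1 and S cyclins and kinases, 4 of 6 were tested and called lower in HCC827. CCNA1 passed the filter only through H1299, and the other 3 were above 5 TPM in both lines. CCNA2 (cyclin A2) was one of these, with 44.0 and 38.8 TPM against 23.2 and 20.7. For the CDK-activating kinase and phosphatase list 0 of 4 were called higher and 1 lower, CDK7 (156 and 158 TPM against 58.8 and 52.7), and for the ubiquitin ligases of G1 regulators 1 of 11 was called higher and 3 lower.

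CDK4 was then set beside its neighbours, a comparison chosen after the values were seen. Of the 5 protein-coding genes on each side in RefSeq order, 8 passed the filter, and for 2 of these HCC827 exceeded H1299 by 2-fold or more with siCTR. OS9, which encodes a lectin of endoplasmic reticulum quality control, had 226 and 220 TPM in H1299 and 2663 and 2809 in HCC827, and the tetraspanin gene TSPAN31, next to CDK4, had 20.1 and 16.1 against 185 and 209. AGAP2, which lies between OS9 and TSPAN31 in this order, had 9.36 and 12.7 TPM against 6.07 and 6.41, and MARCHF9, next to CDK4 on the other side, had 30.6 and 32.1 against 28.1 and 31.6. The median log2 ratio of the 8 was 0.08. TSPAN31 and MARCHF9 overlap CDK4 on the opposite strand in GENCODE release 29, and the strandedness of the libraries is not given in the sources used here, so reads of the shared stretch cannot be assigned with certainty. DNA copy number was not measured here. B4GALNT1, on the far side of OS9, was the 1 neighbour at least 2-fold lower in HCC827 (23.8 and 16.1 TPM in H1299, 2.72 and 2.39 in HCC827). It passed the filter only through H1299, which largely fixed its direction. Over all genes the 2-fold shares were 13.5% higher and 27.8% lower. Among the measured neighbours of the other members, the counts higher and lower by 2-fold or more were 2 and 1 of 3 around CDKN2A, 1 and 1 of 5 around CCND3, 1 and 4 of 9 around CCNE2, and 1 and 1 of 8 around CDKN1B. None was higher around CCNE1 (5 of 8 lower), CDKN1A (2 of 5 lower), CDK6 (1 of 6 lower), CCND1 (0 of 2 lower) or RB1 (0 of 5 lower). Some of the counted neighbours passed the filter only through the line in which they were higher, which largely fixed their direction. Through H1299 alone these were TSHZ3 and DPY19L3 near CCNE1, FSBP and CFAP418 near CCNE2, and BORCS5 near CDKN1B. Through HCC827 alone they were C6orf132 near CCND3 and ESRP1 near CCNE2. The 2 higher genes near CDKN2A were MTAP (5.93 and 7.26 TPM in H1299, 15.2 and 34.6 in HCC827) and TUSC1 (0.0366 and 0.0834 against 7.02 and 6.51), and TUSC1 passed the filter only through HCC827.

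**Figure D3:**
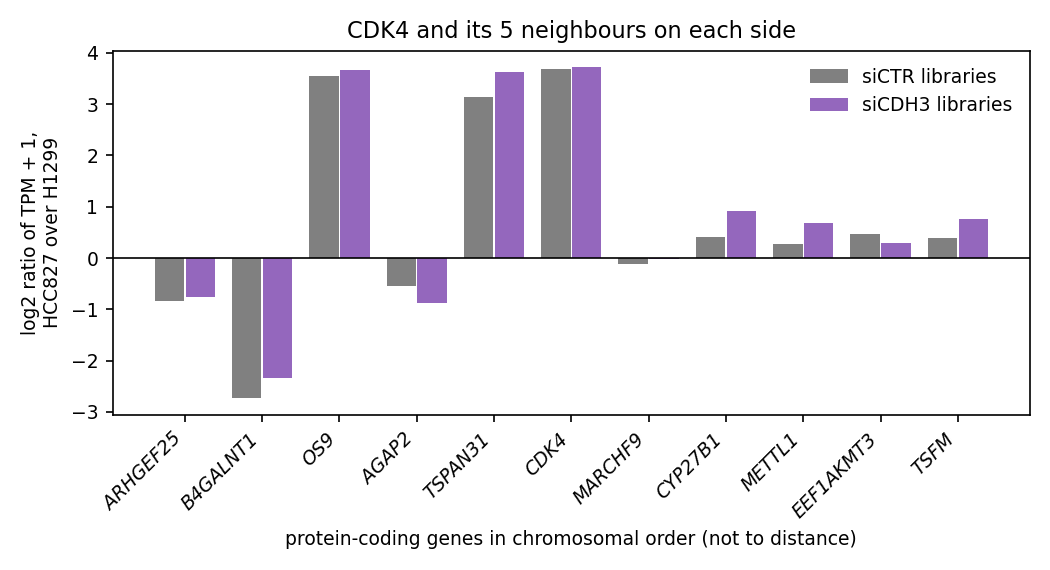
Log2 ratio of TPM + 1 in HCC827 over H1299 for CDK4 and the 5 protein-coding genes on each side in chromosomal order, in the siCTR libraries (grey) and the siCDH3 libraries (purple). OS9, TSPAN31 and CDK4 lie between 3.14 and 3.72, and the other 8 genes, 2 of them under 5 TPM in the siCTR libraries, lie below 1 in both pairs of libraries.

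The second comparison asked what differed after transfection with siCDH3 within each line, and the differences in these genes were small. In H1299 siCDH3, RB1, CCND1, CDKN1B, CDKN1A and CDK6 had lower TPM than in siCTR, by less than 2-fold, while CCND3 and CDK4 were nearly equal. In HCC827 the ratios ran from CCND1, the lowest, to CDKN2A, the highest of the 9 past the filter. CCND3 differed more there than in H1299. CDKN2A differed by a similar amount in both lines, lower with siCDH3 in H1299 and higher in HCC827. No member was past 2-fold in either line, where 2.46% of 11622 genes in H1299 and 1.84% of 11043 genes in HCC827 were past it in either direction. Across the lines, limma called 0 of the 9 members tested for siRNA, with adjusted p from 0.950 to 0.997 and 0 members at an unadjusted p under 0.05. The targeted gene CDH3 was itself not called by this test (log2 difference -1.02, unadjusted p = 0.00163, limma adjusted p = 0.682). Of all 12941 genes, 0.00773% (1 gene, TNFRSF6B) were called and 581 had an unadjusted p under 0.05. This test replicates over lines, with 2 lines and 1 residual degree of freedom per gene. It can miss changes that are small or differ between the lines, and also shared ones of the size seen for CDH3. The 0 calls therefore do not show that the members were unchanged.

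In H1299 all 9 members past the filter had a log2 ratio below 0, with a median of -0.33, but the median of all genes was itself -0.11, and relative to it 7 of 9 were lower. RB1 had 41.5 TPM with siCTR and 26.1 with siCDH3, so its log2 ratio was -0.65 (-0.54 relative to all genes), and 5.34% of genes had a lower one. It was the 1 member at least 1.5-fold lower, as were 7.11% of all genes in H1299. CCND1 went from 137 to 92.5 TPM (-0.56, or -0.46 relative to all genes). The CIP/KIP genes CDKN1B and CDKN1A had log2 ratios of -0.42 and -0.38, which is -0.31 and -0.28 relative to all genes, and their sum was 229 TPM in siCTR and 173 in siCDH3.

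For the kinases in H1299, CDK6 had a log2 ratio of -0.33 (-0.22 relative to all genes), and CDK4 was at -0.05, which becomes 0.06 relative to all genes. CCND3 was at -0.04, or 0.06 relative to all genes, so for these 2 genes the direction flips with the centring, as it does with quantile normalization. CCNE1 was at -0.15 and CDKN2A at -0.22 (-0.04 and -0.11 relative to all genes). CCNE2, with 3.23 TPM in siCTR and 3.97 in siCDH3, was the 1 member with a higher value (0.23), under the filter of 5 TPM, where the precision is unknown. None of these single-library differences has a replicate check.

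The H1299 ratios moved with transcript length. Across 10501 genes with a coding transcript in GENCODE release 29, Spearman's rho between the length of the longest one and the log2 ratio was -0.29 in H1299 and, across 10134 genes, 0.03 in HCC827. These are correlations across genes, which are not independent replicates and share a library. Of the members, CDK6 has the longest such transcript (11612 nucleotides), followed by RB1 (4793) and CCND1 (4307), and the other 7 range from 1283 (CDKN2A) to 3330 (CCNE2). RB1 and CCND1, the members with the lowest ratios in H1299, are therefore among the 3 longest. CDK6, the longest, had a ratio of -0.33 there, above those of the shorter CDKN1B (-0.42) and CDKN1A (-0.38). The part of length in these differences was not tested.

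**Figure D4:**
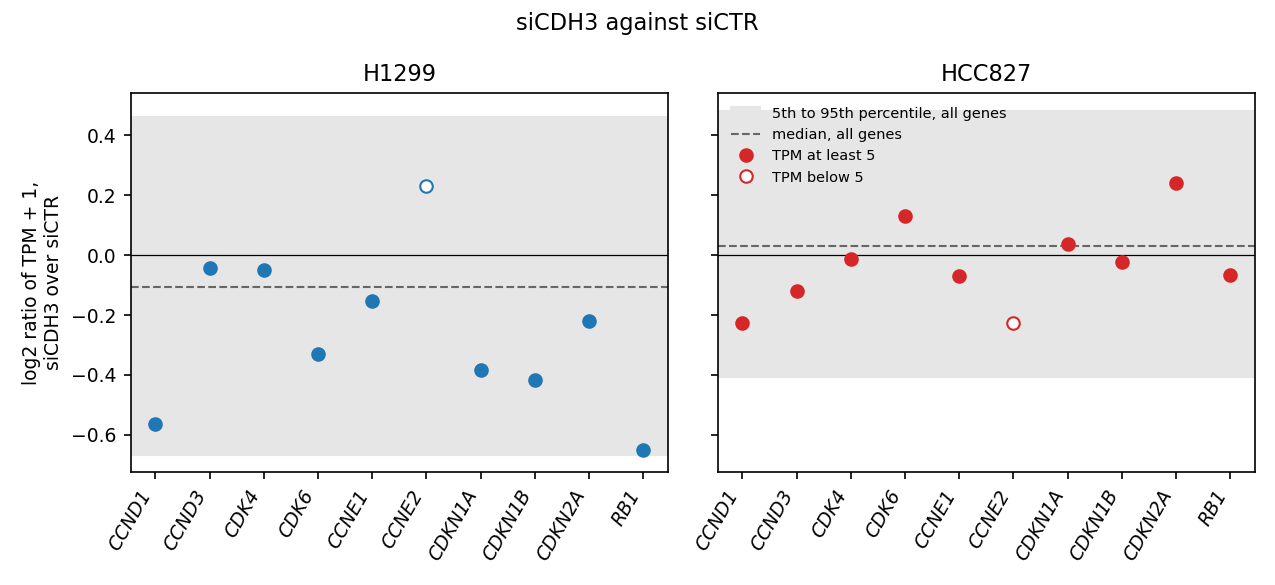
Log2 ratio of TPM + 1 in siCDH3 over siCTR for the 10 genes in H1299 (left) and HCC827 (right), 1 library per group, with the 5th to 95th percentile of all genes in grey, their median dashed, and an open symbol for CCNE2, which is under 5 TPM. In H1299 the points run from -0.65 for RB1 to 0.23 for CCNE2, and in HCC827 from -0.23 for CCND1 and CCNE2 to 0.24 for CDKN2A, all inside the grey band.

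In HCC827, where CDH3 was at 173 TPM with siCTR, 3 of the 9 members past the filter lay above and 6 below the median of all genes, which was 0.03. The members' median was -0.02. CCND1 was lowest, with 126 TPM under siCDH3 against 148 TPM under siCTR (log2 ratio -0.23), and 11.9% of genes had a lower ratio. CDKN2A was highest, at 246 and 291 TPM (0.24), with 85.0% of genes lower. CDK6 (12.8 and 14.1 TPM) was at 0.13, CCND3 (21.8 and 20.005) at -0.12, and CDK4, CDKN1A, CDKN1B, CCNE1 and RB1 lay between -0.07 and 0.04. CDKN1A, at 0.04, turned marginally negative (-0.0008) with TPM recomputed without mitochondrially encoded genes. CCNE2 had 3.81 TPM in siCTR and 3.11 in siCDH3 (-0.23).

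By unadjusted p in limma, CCND1 was the member that came closest to a shared response. Its TPM was lower in siCDH3 in both lines, as was that of CCND3, CCNE1, CDK4, CDKN1B and RB1. For CCND1 the limma log2 difference was -0.39 (SE 0.17, 95% interval -0.84 to 0.05, unadjusted p = 0.0696, adjusted p = 0.950), so the change did not pass the test. RB1 followed at -0.36 (95% interval -0.89 to 0.17, adjusted p = 0.950), with nearly all of it from H1299. For CDK4 the estimate was -0.03, with a 95% interval from -0.43 to 0.36.

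Over the other genes of the pathway, limma called 0 in either direction for siRNA in each of the 5 lists, and 2 of their genes had an unadjusted p under 0.05. These were 1 of 4 tested among the other cyclins and kinases and 1 of 10 among the RB family, E2F and DP factors. The lists with 3, 4 and 11 tested genes had 0. Over all 12941 genes tested, 581 had such a p-value, so these 2 do not set the lists apart. One was CCNC, which encodes cyclin C, the partner of CDK8 in the Mediator kinase module. It had 55.3 and 73.3 TPM in H1299 and 27.1 and 47.0 TPM in HCC827 (siCTR first), higher in both lines (log2 difference 0.59, SE 0.17, unadjusted p = 0.0213, adjusted p = 0.950). The other was E2F3, an activator of S phase genes, with 13.0 and 7.65 TPM in H1299 and 7.21 and 4.98 in HCC827, lower in both lines (-0.58, SE 0.16, unadjusted p = 0.017, adjusted p = 0.950).

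By list, no gene was past 2-fold in either line. In H1299 the RB family, E2F and DP factors had 9 of 9 measured genes below 0 and a median of -0.23, against -0.11 for all genes, with 6 of the 9 below that median. E2F6 (13.1 and 9.39 TPM) and E2F5 (76.5 and 58.8) followed E2F3 in size. In HCC827 their median was -0.17 against 0.03 for all genes, with 5 of 9 below, E2F4 among them (107 and 85.5 TPM).

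The list of other cyclins and kinases had a median of 0.09 in H1299 over 4 genes and of -0.03 in HCC827 over 3, and CCNA2 was lower in both lines, at -0.18 and -0.16. For other CDK inhibitors the medians were -0.13 over 3 genes in H1299 and 0.10 for the 1 measured gene, CDKN2B, in HCC827. For the CDK-activating kinase and phosphatase list they were 0.00 and 0.13 over 4 genes each, with MNAT1, the assembly factor of the kinase, at 0.41 in H1299 and 0.19 in HCC827. For the ubiquitin ligases of G1 regulators they were -0.13 and 0.01 over 11 genes each. CUL1, the scaffold of the SCF ligase, had 66.5 and 44.3 TPM in H1299 and 47.3 and 45.3 in HCC827. SKP2, the F-box protein that targets p27 for degradation, had 9.43 and 6.92 TPM in H1299 and 8.66 and 13.2 in HCC827.

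**Figure D5:**
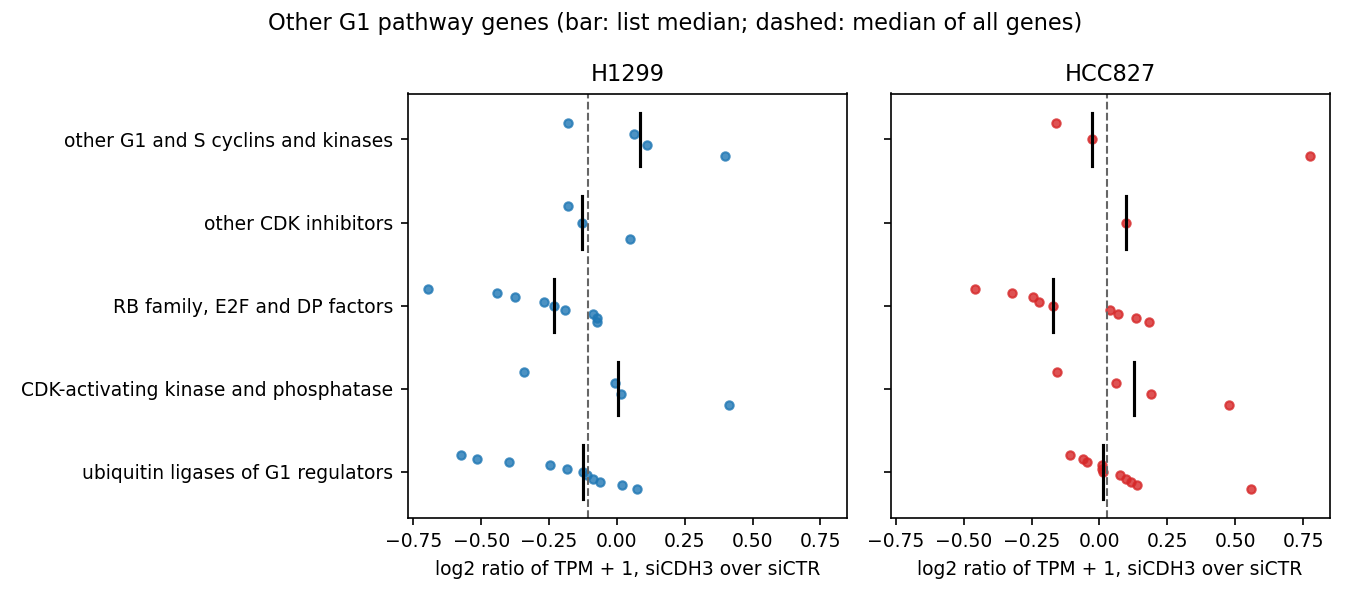
Log2 ratio of TPM + 1, siCDH3 over siCTR, for the genes of 5 lists of the G1 pathway with a TPM of at least 5, 1 point per gene, in H1299 (left) and HCC827 (right). Bars mark list medians and the dashed line the median of all genes (-0.11 and 0.03). Points lie between -0.70 and 0.41 in H1299 and between -0.46 and 0.77 in HCC827.

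Genes with the most similar pattern over the 4 libraries were sought for CCND1 and CDKN1A, by Euclidean distance between log2(TPM + 1) profiles centred on their means. For CCND1 the nearest of 11446 protein-coding genes were CENPI (distance 0.03), C16orf52 (0.04) and CCDC125 (0.05). For CDKN1A they were EIF3E (0.05), SERINC1 (0.06) and WLS (0.06). With 4 libraries such closeness is common, and 1799 genes lay within a distance of 0.5 of CCND1 and 839 of CDKN1A. CENPI had 4.98 and 3.03 TPM in H1299 and 5.43 and 4.63 in HCC827. It passed the filter only through HCC827 siCTR, and its precision is unknown.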

How the data were processed

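RNA was sequenced in 4 libraries, 1 for each combination of line and siRNA, grouped by their titles. The values the authors deposited are TPM per gene, made on build hg19 per the submitters' processing notes. No source used here states the aligner, the counting tool, the strandedness or the depth, so counting error could not be computed.

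Log2 ratios were taken after adding a pseudocount of 1, which understates changes of low genes, and genes under 5 TPM in both libraries compared were left out of counts. The limma fit (limma 3.58.1 in R 4.3.3) had line and siRNA as terms, with Benjamini-Hochberg adjustment over every gene tested. It was tested on simulated data. These do not show its power in the 4 libraries, where the siRNA term did not call the targeted gene CDH3. As each group has 1 library, a gene's own spread in the fit is only how unlike the lines responded, and it may be technical. limma moderated this spread toward that of all genes, with 3.71 prior and 1 residual degrees of freedom. The SEs, intervals and p-values therefore rest largely on spread shared across genes.

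The 10 members, the 5 lists of other G1 genes and the rules for naming genes were chosen with earlier results of these data known. Up to 4 genes were named per list and line, by size of the log2 ratio. The neighbours of the members, and values of a named gene in the other line, were chosen after values were seen. Promoter sequences are from RefSeq. One further gene list is not reported here. Alternatives tried were other pseudocounts, filters, scalings, a 1.5-fold rule and other limma designs.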

Additional observations from a re-analysis of the deposited data

Results flagged for a closer look

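Among the members and the pathway list genes with TPM or log2 ratios given in the text, 10 had opposite signs in the lines for the log2 ratio of siCDH3 over siCTR. E2F8 and CDK2, list genes named without such values, also had opposite signs and are not counted. Neighbours of the members and genes of similar pattern were not screened. With 1 library per group the difference between lines was not tested, and many of these values are near 0.

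Among the members these were CDK6 (-0.33 in H1299, 0.13 in HCC827), CDKN2A (-0.22 and 0.24), CDKN1A (-0.38 and 0.038) and CCNE2 (0.23 and -0.23, under 5 TPM throughout). The widest gaps among these list genes were in SKP2, the F-box protein for p27 (-0.40 in H1299 and 0.56 in HCC827), and in CDC25A, the phosphatase that activates CDK2 (-0.34 and 0.48). CDKN2D had -0.13 and 0.46 (under 5 TPM in HCC827), and E2F6 had -0.44 and 0.14. CDKN2C, also under 5 TPM in HCC827, was at -0.18 and 0.12, and CDK7 was at 0.016 and -0.16.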

How the results depend on the processing

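No member's value past a threshold changed sign under any alternative run. Some values near 0 changed sign with the scaling, and several of these flips are given above. For HCC827 over H1299 in siCTR, the CDKN2A log2 ratio was -0.014, and 0.38 with the median of all genes set to 0. It was 0.42 without mitochondrially encoded genes and 0.46 with quantile normalization. The H1299 siCDH3 over siCTR ratio of CCND3, at -0.04, became 0.0046 without mitochondrially encoded genes. The number of members past the size rule in H1299, 0 at 2-fold, was 1 at 1.5-fold, and the other counts of members stayed within 1.5 times of their main value. The limma siRNA term called 0 members under every alternative run. In the limma line term CDKN1B did not pass without mitochondrially encoded genes (adjusted p = 0.0806) or with no filter (0.0523), and CCND1 (0.0221 and 0.0203) and CDKN2A (0.0364 and 0.0257) passed without mitochondrially encoded genes and with quantile normalization. The cause was not tested.

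Over all genes, 102 were 2-fold higher and 184 lower in H1299 siCDH3, against 47 and 91 with a pseudocount of 5, 43 and 108 with a filter of 20 TPM, 228 and 308 with a filter of 1 TPM or none, and 373 and 826 at 1.5-fold. With the median set to 0 they were 140 and 134, and with quantile normalization 137 and 123. In HCC827, 111 and 92 became 53 and 46, 50 and 48, 193 and 180, and 370 and 280 under the same first 4 settings. Between the siCTR libraries, 1695 higher and 3500 lower in HCC827 became 2418 and 2300 with the median set to 0, 2787 and 2430 without mitochondrially encoded genes, 2276 and 2465 with quantile normalization, and 904 and 2130 with the filter of 20 TPM. The 1 gene limma called for siRNA was not called without mitochondrially encoded genes, with quantile normalization, with no filter or with no term for line.

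The limma siRNA test is itself paired by line, with line as a term; without that pairing it called 0 genes, with 20 at an unadjusted p under 0.05. The unknown depth leaves the precision of CCNE2, under 5 TPM throughout, undetermined.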
